A study of Mus musculus with 33 samples.

Results

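Mitotic kinesins are motor proteins that walk along microtubules or take them apart during cell division. The 10 described here, Kif11, Kif15, Kif22, Kif4, Kif18a, Kif18b, Kif2c, Kif14, Kif20a and Kif20b, were picked by gene symbol from a count table of 14862 gene rows, and all 10 were found there. The table holds 33 single ventricular cells. The mice express mAG-hGem, a fusion of a green fluorescent protein with geminin that belongs to the FUCCI cell cycle reporter. Every group carries this transgene, and its promoter is not given in the sources used here. Cells were dissociated with enzymes and sorted by their green signal, which in this reporter accumulates from S phase until division.

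The E14.5 positive group (embryonic day 14.5, mAG-hGem positive) had 10 cells and the E14.5 negative group (the same age, mAG-hGem negative) had 11. The P5 positive group (postnatal day 5, mAG-hGem positive) had 6 cells and the P5 negative group (the same age, mAG-hGem negative) had 6. Per the labels, a cell was accepted when PCR found Tnnt2 and did not find Pdgfrb, and mRNA was amplified as antisense RNA. Each sample is 1 cell and no animal is named. Each group therefore counts as 1 sample, no test between groups was possible, and none of the differences given here has a replicate check. Levels are counts per 1000000 (CPM), from counts summed over the cells of a group or from a single cell. Their 95% intervals (exact Poisson for a level, exact binomial for a ratio) cover counting error only, since amplified reads are not independent molecules. Exact binomial 95% intervals for a share of cells treat the cells as independent draws, which cannot be checked with no animal named.

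Totals ran from 2.54 to 38.465 M counts per cell, where 1 M is 1000000 counts (median 12.8 M). Tnnt2 stood at 362 CPM or more in the 21 E14.5 cells and in 5 P5 positive cells. The remaining P5 positive cell, L2P12, had 7.24 CPM of Tnnt2 and 82.5 CPM of 12 summed cardiomyocyte markers. All 7 endothelial markers reached 10 CPM in L2P12, and they summed to 13416 CPM. Of the 6 P5 negative cells, the highest had 128 CPM of Tnnt2 and the lowest none, and 0 to 3 of 12 cardiomyocyte markers reached 10 CPM. Endothelial markers summed to 9828 to 32201 CPM in 5 of these cells. In the sixth, L2N12, fibroblast and mural markers summed to 19402 CPM, so the P5 negative cells went against their cardiomyocyte label. N10, an E14.5 negative cell, had 46245 CPM of fibroblast and mural markers beside 22740 CPM of cardiomyocyte markers.

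In dividing cells, kinesins separate the spindle poles, push chromosome arms, trim microtubule plus ends and build the central spindle on which the cell cleaves. Their transcripts are known to accumulate late in the cell cycle. Many such promoters hold the cell cycle genes homology region (CHR, core letters TTTGAA), a binding site of the DREAM complex that represses them in resting cells, often together with CCAAT boxes. Heart muscle cells divide before birth, and soon after birth many duplicate their DNA without completing cytokinesis.

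Promoter sequences are shown because the members' transcripts appeared together in the same cells, as described further on. They come from RefSeq (build GRCm38.p6), which gave 9 members a promoter of 250 bases before to 50 bases after the start. Kif20a is not shown. TTTGAA was searched on both strands, where it reads TTCAAA on the other strand, and was present in 8 of the 9 promoters, against 18.1% of 27025 RefSeq promoters of that length. CCAAT, which reads ATTGG on the other strand, was present in 5 of 9, against 37.9%. The variant TTCGAA, a palindrome, was present in 0 of 9, against 1.57%. The letters of the 3 motifs did not overlap each other in these promoters. TTTGAA and CCAAT occurred together in 5 of 9, namely Kif11, Kif22, Kif4, Kif18b and Kif14. Of the 27025 promoters, 7.70% held CCAAT together with TTTGAA or TTCGAA. Such a match is a description of letters, not a measured binding site. The 6 promoters that hold TTTGAA between 50 bases before and 30 bases after the start (4.27% of all promoters do) are printed from 60 bases before to 40 bases after it, 5′ to 3′ on the strand of the gene, followed by Kif18a, the 1 member in which TTTGAA was not found. Capitals mark TTTGAA and CCAAT in either orientation.
Kif11: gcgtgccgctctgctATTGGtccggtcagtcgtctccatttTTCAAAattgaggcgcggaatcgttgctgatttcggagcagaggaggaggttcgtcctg
Kif15: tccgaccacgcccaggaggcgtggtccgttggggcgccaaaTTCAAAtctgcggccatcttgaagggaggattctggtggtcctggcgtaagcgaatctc
Kif22: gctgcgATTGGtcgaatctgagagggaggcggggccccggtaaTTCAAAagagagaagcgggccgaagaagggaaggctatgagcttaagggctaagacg
Kif4: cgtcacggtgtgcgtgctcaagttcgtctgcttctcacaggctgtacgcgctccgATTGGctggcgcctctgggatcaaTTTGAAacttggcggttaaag
Kif18b: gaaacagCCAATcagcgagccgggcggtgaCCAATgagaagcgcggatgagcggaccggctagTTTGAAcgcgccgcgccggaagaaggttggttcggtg
Kif20b: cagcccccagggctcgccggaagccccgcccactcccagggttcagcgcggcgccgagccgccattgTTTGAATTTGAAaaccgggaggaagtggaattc
Kif18a: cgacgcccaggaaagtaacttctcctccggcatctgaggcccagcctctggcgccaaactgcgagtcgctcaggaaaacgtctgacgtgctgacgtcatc
These windows lie at chr19:37376322-37376421 (plus strand) for Kif11, chr9:122951021-122951120 (plus) for Kif15, chr7:127042381-127042480 (minus) for Kif22, chrX:100626005-100626104 (plus) for Kif4, chr11:102925085-102925184 (minus) for Kif18b, chr19:34922298-34922397 (plus) for Kif20b and chr2:109280678-109280777 (plus) for Kif18a. Kif20b holds 2 copies of TTTGAA side by side, the first starting 8 bases after the start. In Kif11 and Kif15 the reversed copy begins at the same place, 19 bases before the start. For Kif2c, Kif14 and Kif4 the RefSeq start lies 3867, 1505 and 328 bases downstream of the first GENCODE start of the gene, so another start of these genes was not searched. In Kif2c and Kif14, TTTGAA lies 103 and 228 bases before the RefSeq start.

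The first comparison set cells with and without the green signal at E14.5 side by side. Transcripts of all 10 mitotic kinesins were higher in the summed E14.5 positive cells, and 9 of 10 were higher by over 4-fold (8 to 10 when 1 cell was left out). Over all 12633 genes with at least 10 counts in these cells, 14.4% were higher and 17.0% lower by over 4-fold. The median log2 ratio of the 10 members was 4.86, between 1.97 for Kif14 and 13.83 for Kif2c, while the median over all genes was -0.16. For 2 members, Kif15 and Kif2c, every positive cell lay above every negative cell, which held for 0.198% of all genes. Summed over the 10 members, single positive cells ranged from 109 to 1967 CPM with a median of 1066 CPM, and single negative cells from 0 to 226 CPM with a median of 1.84 CPM.

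The E14.5 samples fall into titles numbered 1 to 10 and 21 to 30, and the meaning of these ranges is not given. The median log2 ratio was 9.58 within the lower and 5.28 within the higher range. Negative cells of the lower range had no count of Kif11, Kif15, Kif22, Kif4, Kif18a, Kif18b or Kif2c. Their ratios there are bounds against 3 counts, and 9.58 rests on these bounds. A single negative cell, N24, held most of the negative counts for 6 members, and without it the median was 10.15. That value rests in part on the bound of Kif4 (11.51). N24 also had 17331 CPM of 22 summed S phase markers, more than any other cell of the 33. Why N24 differs from the other negative cells was not tested.

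**Figure D1:**
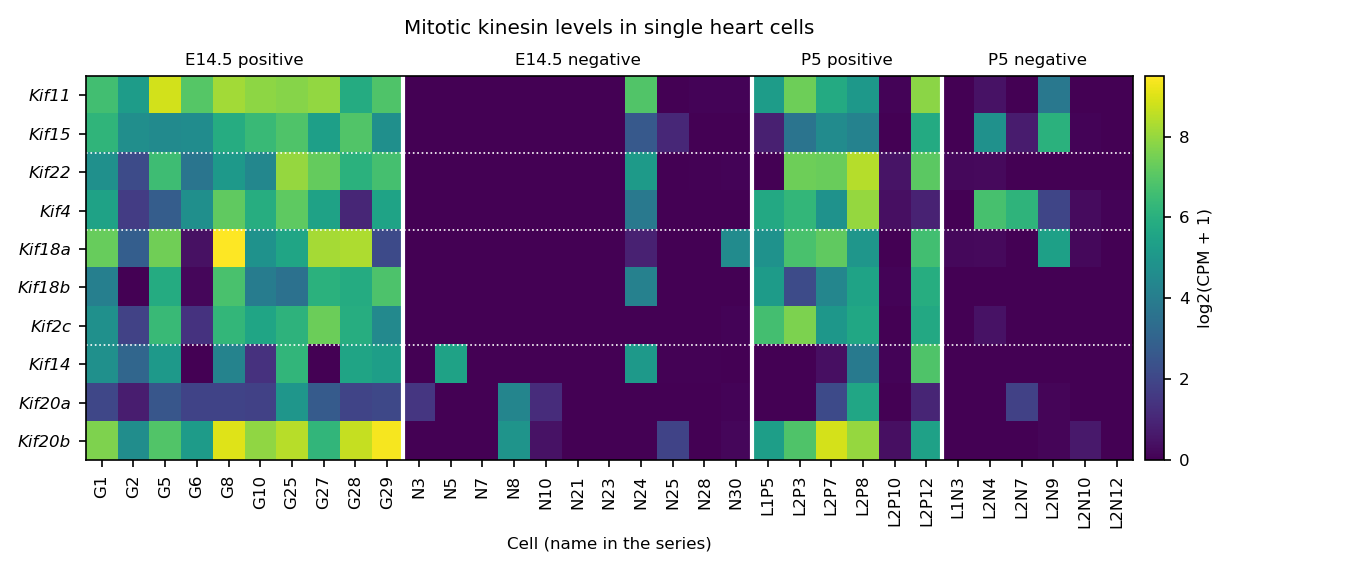
Levels of the 10 mitotic kinesins (rows, grouped by role with dotted lines) in each of 33 cells (columns), as log2(CPM + 1), with white lines between the 4 groups. Most E14.5 positive cells and 5 of the 6 P5 positive cells are bright in most rows, and the negative groups are dark apart from single cells such as N24, L2N4 and L2N9.

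The motors of spindle bipolarity come first. Kif11, the main motor that slides apart antiparallel microtubules and so separates the poles, was present in each E14.5 positive cell, with 36.9 CPM in the lowest cell, a median of 171 CPM and 456 CPM in the highest. The E14.5 negative cells had a median of 0 and a highest value of 120 CPM in N24, with the next cell at 0.0593 CPM. Apart from N24, all E14.5 positive cells lay far above the negative ones. The summed levels were 187 CPM (185 to 190) and 14.3 CPM (13.7 to 14.8), a log2 ratio of 3.72 (3.66 to 3.77). N24 held 99.9% of the negative counts, and without it the log2 ratio of Kif11 was 13.39.

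Kif11 in P5 positive cells had 0.0796 CPM in the lowest cell (L2P10), a median of 46.2 CPM and 229 CPM in the highest (L2P12). The ranges of the positive cells of both ages overlapped. Of the P5 negative cells, L2N9 alone was above 0.388 CPM of Kif11, at 13.0 CPM, and the median was 0.

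Kif15 is the motor that can hold the spindle bipolar when Kif11 is inhibited. It ranged from 22.3 to 119 CPM in E14.5 positive cells (median 48.7 CPM), and none of the negative cells exceeded 5.27 CPM (median 0). The groups did not overlap, and the log2 ratio was 6.36 (6.13 to 6.60), or 8.79 without N24. At P5 the positive cells ranged from 0 to 54.5 CPM with a median of 14.5 CPM, and 4 of the 6 lay below every E14.5 positive cell. Among the P5 negative cells, L2N9 had 66.3 CPM and L2N4 26.8 CPM. L2N9 thus exceeded every P5 positive cell. The log2 ratio of P5 positive over P5 negative cells was 1.13 (1.02 to 1.24), the lowest of the 10 members in that comparison.

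The chromosome arm motors are chromokinesins, which bind chromatin and push chromosome arms away from the poles. Kif22 ranged from 3.45 CPM (G2) to 250 CPM (G25) in E14.5 positive cells, with a median of 49.8 CPM. Its E14.5 negative cells had a median of 0 and a highest value of 35.5 CPM in N24, and the log2 ratio was 4.54 (4.44 to 4.64), or 13.06 without N24. Only N24 reached into the range of the positive cells. The P5 positive cells went from 0 (L1P5) to 343 CPM (L2P8) with a median of 149 CPM, and all 6 P5 negative cells together held 2 counts of Kif22. Each of the other 4 P5 positive cells besides L2P10, at 136 to 343 CPM, lay above at least 8 of the 10 E14.5 positive cells.

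Kif4, which besides its chromatin role helps set the length of the central spindle together with Prc1, ranged from 1.04 CPM (G28) to 143 CPM (G8) in E14.5 positive cells, with a median of 43.3 CPM. All 313 E14.5 negative counts came from N24, at 13.4 CPM, and the log2 ratio was 4.99 (4.82 to 5.15), or a bound of 11.51 without N24. The P5 positive values ran from 0.318 to 251 CPM (median 39.7 CPM), and L2P8 held 80.1% of their counts. Among the P5 negative cells Kif4 had 106 CPM in L2N4 and 71.5 CPM in L2N7. Both cells exceeded at least 4 of the 6 P5 positive cells. Without L2P8 the log2 ratio of P5 positive over P5 negative was -0.30 in place of 1.53. In the GENCODE annotation 15.1% of the exon bases of Kif4 are shared with Pdzd11 on the opposite strand, and reads of the shared stretch cannot be told apart without strand.

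Among the regulators of microtubule plus ends, Kif18a dampens the movements of chromosomes at the spindle equator. It was spread widely over E14.5 positive cells, from 0.346 CPM (G6) to 719 CPM (G8), with a median of 101.8 CPM. The E14.5 negative cells had a median of 0, and N30 held 95.3% of their counts at 22.7 CPM. N30 lay above 3 positive cells (G6, G29 and G2). The log2 ratio was 6.64 (6.497 to 6.78), and without N30 it was 10.91. The P5 positive cells had between 0 and 143 CPM, with a median of 64.2 CPM, and among the P5 negative cells L2N9 reached 41.0 CPM.

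Kif18b works at plus ends together with Kif2c. It was absent from the counts of 1 E14.5 positive cell (G2) and reached 113 CPM in G29, with a median of 36.0 CPM. All 397 E14.5 negative counts came from N24, at 17.0 CPM, and the log2 ratio was 4.73 (4.59 to 4.88), or a bound of 11.60 without N24. P5 positive cells held between 0.0796 and 60.02 CPM, with a median of 27.7 CPM. Kif18b had 0 counts among the 82.953 M counts of the P5 negative cells. The ratio is therefore a bound. Kif18b was 884-fold higher in the P5 positive group when 3 counts were set for the negative group (log2 ratio 9.79, lower counting limit 9.49).

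Kif2c is a kinesin that does not walk but removes tubulin from microtubule ends, which frees wrongly attached chromosomes. It ranged from 1.61 CPM (G6) to 161 CPM (G27) in E14.5 positive cells with a median of 52.9 CPM. All 11 E14.5 negative cells together held 1 count, in N30. The groups did not overlap, and the log2 ratio of 13.83 has a counting interval of 11.35 to 19.13, and without N30 it was a bound of 12.11. The P5 positive range was 0 to 195 CPM with a median of 50.3 CPM. L2N4 held both counts found in P5 negative cells. The positive cells held 11761 counts of Kif2c at E14.5 and 6085 at P5, beside 1 and 2 in the negative cells of those ages.

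The last role is the central spindle and cytokinesis. Kif20b, which acts at the midbody late in cytokinesis, ranged in E14.5 positive cells from 24.4 CPM (G2) to 657 CPM (G29) with a median of 219 CPM. The E14.5 negative cells had a median of 0 and a highest value of 28.9 CPM in N8, which lay above G2 only, and the log2 ratio was 6.99 (6.85 to 7.13), or 9.50 without N8. In the P5 positive group Kif20b ran from 0.318 to 468 CPM (L2P7) with a median of 79.4 CPM, and the P5 negative cells together held 9 counts.

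Kif14, which brings citron kinase to the midbody, had the smallest E14.5 ratio in the summed counts, a rank that rests on N24. It ranged from 0 (G6 and G27) to 74.9 CPM (G25) with a median of 22.4 CPM in E14.5 positive cells. Of the negative cells, N5 had 43.4 CPM and N24 34.3 CPM, both above at least 7 positive cells, and the other 9 had at most 0.0445 CPM. In N5, Kif14 was the 1 member with any count. The log2 ratio was 1.97 (1.88 to 2.06), or 3.91-fold, and without N24 it was 3.23, above that of Kif20a. At P5, L2P12 held 87.3% of the positive counts at 118 CPM, and L2P8 followed at 14.2 CPM. The other 4 P5 positive cells had at most 0.319 CPM, and P5 negative cells had no count, so the ratio is a bound. Kif14 was 913-fold higher in the positive group when 3 counts were set for the negative one (log2 ratio 9.83, lower counting limit 9.54). Since L2P12 was led by endothelial markers, the summed P5 level of Kif14 came mostly from a cell outside the cardiomyocyte label.

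Kif20a, which carries the chromosomal passenger complex to the central spindle, had the lowest level per kilobase in E14.5 positive cells. In single cells it ranged from 0.714 to 30.7 CPM with a median of 2.96 CPM, and G25 alone reached 10 CPM. N8 had 18.8 CPM among the E14.5 negative cells (median 0), above 9 of the 10 positive cells. The log2 ratio was 2.24 (2.05 to 2.44), and without N8 it was 5.05. Its direction turned to -0.77 within titles 1 to 10, the range that holds N8 and not G25. L2P8 held 95.2% of the P5 positive counts at 48.6 CPM, where the median was 0.489 CPM. Of the exon bases of Kif20a, 31.8% are shared with Cdc23 on the opposite strand, and reads of that stretch cannot be told apart without strand.

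Levels were also divided by kilobases of exon to set the members against each other. Whether counts grow with exon length in these amplified libraries was not tested, so the order depends on that assumption. In summed E14.5 positive cells the level per kilobase was 60.8 CPM for Kif18a, 50.3 CPM for Kif20b, 46.7 CPM for Kif22 and 38.9 CPM for Kif11. Kif2c (23.4 CPM per kilobase), Kif18b (16.2), Kif15 (12.7) and Kif4 (10.2) followed, and Kif14 (2.83) and Kif20a (1.63) were lowest. In P5 positive cells Kif22 led with 86.2 CPM per kilobase, before Kif20b (30.1), Kif18a (21.08), Kif11 (21.04), Kif2c (20.7) and Kif4 (18.3). Kif18b (9.61), Kif15 (4.81), Kif20a (3.70) and Kif14 (3.69) were the lowest there. Within each group the single cells of neighbours in this order overlapped.

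The second comparison set the cells sorted as mAG-hGem positive at both ages side by side. None of the 10 members differed by over 4-fold in either direction between P5 positive and E14.5 positive cells, where 19.8% of 12262 genes were higher and 27.4% lower by that much. The cells of the groups overlapped for all 10, as they did for all genes but 0.979%. The median log2 ratio of the members was -0.46, and the median over all genes was -0.39, so the members lay close to the bulk of genes. Of the 10, 4 were above 0 and 6 below. This comparison shares the E14.5 positive cells with the first.

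Lower at P5 were Kif18a, at a log2 ratio of -1.53 (-1.57 to -1.49), and Kif15, at -1.40 (-1.47 to -1.33). Kif11 (-0.89), Kif18b (-0.76) and Kif20b (-0.74) were lower by less than 2-fold. Kif2c was nearly level, at -0.17 (-0.22 to -0.13). Higher at P5 were Kif20a at 1.18 (1.06 to 1.30), Kif22 at 0.88, Kif4 at 0.84 and Kif14 at 0.38. These intervals are narrow because counts are many, and single cells move the values far more. Without L2P8 the log2 ratio of Kif4 was -0.99 and that of Kif20a -2.71, so both directions rested on that cell. Kif14 was at -2.20 without L2P12 and at -0.16 with equal weight per cell. Kif2c had no stable direction: it was at -0.88 without L2P3, at 0.51 without G27 and at 0.37 with equal weight per cell. Kif22 kept its sign without any single cell, with 0.24 as the lowest value, and so did Kif11, Kif15, Kif18a, Kif18b and Kif20b.

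L2P12 is the P5 positive cell led by endothelial markers. Without it, the median log2 ratio of the members was -0.84, beside an all-gene median of -0.89. Kif15 then stood at -2.21 and Kif14 at -2.20, both lower by over 4-fold, and Kif11 stood at -1.64. L2P10 had 70264 CPM of cardiomyocyte markers but 1.27 CPM summed over the 10 members and 26.7 CPM of 15 mitotic markers, where the other 5 P5 positive cells had at least 8841 CPM of these markers. Gmnn, the mouse geminin gene, stood at 1.35 CPM in L2P10. Without L2P10 the members' median was -0.25.

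**Figure D2:**
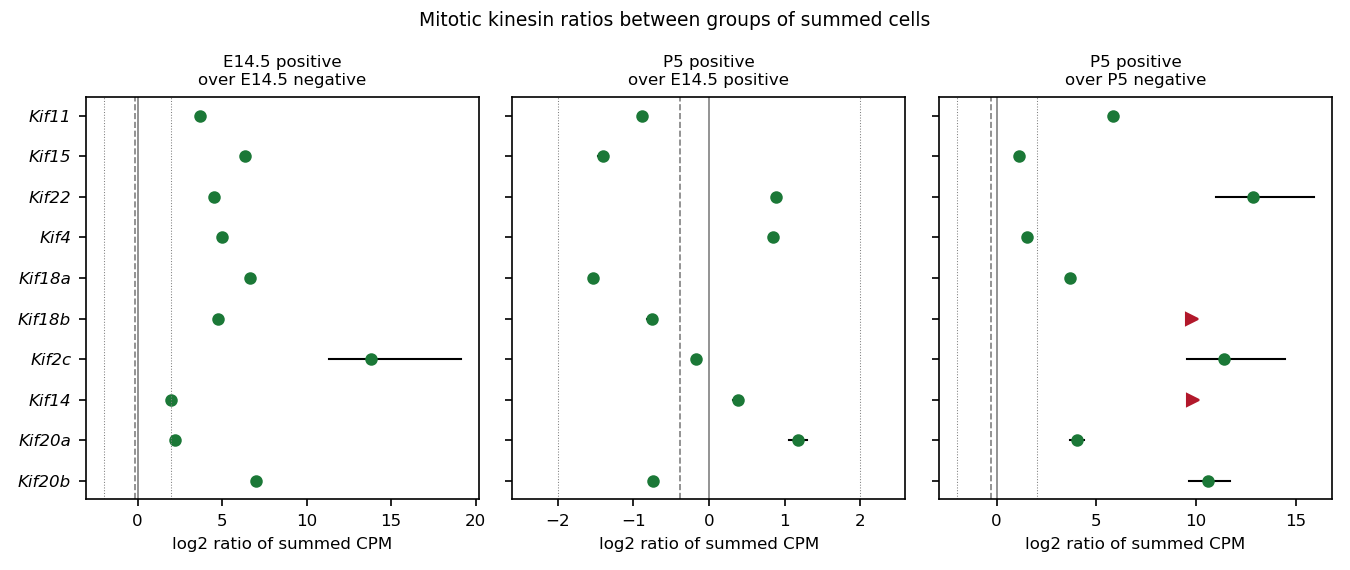
Log2 ratios of summed CPM for the 10 members in 3 comparisons, with 95% exact binomial intervals of counting error as bars and red triangles for lower bounds against 3 counts. The dashed line is the median over all genes and the dotted lines mark 4-fold; all members lie right of 0 in the outer panels and between the dotted lines in the middle panel.

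The third comparison set P5 positive against P5 negative cells, which differ in cell type markers as well as in the green signal, and these cannot be told apart here. All 10 members were higher in P5 positive cells, 8 of 10 by over 4-fold, while 25.6% of 11567 genes were higher and 27.7% lower by that much. The median log2 ratio was 7.82, beside -0.29 over all genes. For 1 member, Kif18b, every positive cell lay above every negative cell, as did 1.43% of genes. That rests on 1 count of Kif18b in L2P10, the lowest positive cell, beside 0 counts in the negative cells. Kif22 had the highest ratio, 12.88 with a counting interval of 11.03 to 15.93. The 2 members under 4-fold were Kif15 (1.13) and Kif4 (1.53), and both rest on single cells: Kif15 was at 3.42 without L2N9 and Kif4 at 3.09 without L2N7. The count of 8 became 9 without either of these cells and 7 without L2P8, where Kif20a stood at 0.14 in place of 4.03. Without L2N9, Kif11 was at 11.83 in place of 5.86 and Kif18a at 10.32 in place of 3.69. Without L2N7 Kif20a was at 9.66, without L2N10 Kif20b was at 13.49 in place of 10.59, and without L2P12 the bound of Kif14 was 7.26 in place of 9.83. Without L2N9 the median was 9.97, and without L2P12 it was 6.18.

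Across single cells, a level of 10 CPM or more in at least 5 of the 10 members was reached by 9 of 10 E14.5 positive cells (90%, exact interval 55.5 to 99.7%). Among E14.5 negative cells N24 alone reached it (9.09%, 0.230 to 41.3%). Of the P5 positive cells 5 of 6 did (83.3%, 35.9 to 99.6%), and of the P5 negative cells 0 of 6 (0 to 45.9%). These intervals treat cells as independent draws and do not test a difference between groups. Counted over all pairs of a cell and a member, 76.0% reached 10 CPM in E14.5 positive, 8.18% in E14.5 negative, 65.0% in P5 positive and 10% in P5 negative cells. With each cell thinned to 8671357 counts and 6 shallower cells left out (1, 2, 1 and 2 in that order of groups), the shares were 81.1%, 10%, 66.0% and 10%. For comparison, the 7 endothelial markers had at most 26.1 CPM in sum in any E14.5 cell, at median depths of 11.5 M (positive) and 16.9 M (negative).

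The summed members followed the mitotic markers rather than the S phase markers. Over the 33 cells, Pearson's r on log2(CPM + 1) between the summed kinesins and 15 mitotic markers that hold no kinesin was 0.88 (Spearman's rho 0.86), and with 22 S phase markers it was 0.52 (rho 0.45). Within the 10 E14.5 positive cells these were 0.89 (rho 0.73) and -0.50 (rho -0.25). The cells of a group share age and sort, so these are descriptions with no test. The 2 E14.5 positive cells with the lowest kinesin sums, G2 at 109 CPM and G6 at 228 CPM, also had the lowest mitotic marker sums, 797 and 2359 CPM. G6 had 13138 CPM of S phase markers, the highest of that group.

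Over 5000 CPM of S phase markers together with fewer mitotic marker CPM was found in 6 cells, G2, G6, N24, L2N4, L2N9 and L2N10, and these had 0 to 5 members at 10 CPM. Since the members followed the mitotic markers, this choice favours cells with few members, and the low numbers are no separate result. It left out G8 (5491 CPM of S phase markers) and L2P7 (5981 CPM), which had more mitotic marker CPM. G8 had 9 members at 10 CPM and L2P7 had 8. L2N10, with 5736 CPM of S phase markers, had no member above 0.553 CPM. In G2, Kif11 (36.9 CPM), Kif20b (24.4 CPM) and Kif15 were above 10 CPM. In G6, Kif11 (127 CPM), Kif20b (35.8), Kif4 (25.3), Kif15 (23.4) and Kif22 (11.8) were above 10 CPM, and Kif14, Kif18a, Kif18b, Kif2c and Kif20a were at 2.77 CPM or less. In N24, Kif11 (120 CPM), Kif22 (35.5), Kif14 (34.3), Kif18b (17.0) and Kif4 (13.4) were above 10 CPM, and Kif2c, Kif20a and Kif20b had no count. The P5 negative cell L2N4, with 13053 CPM of S phase markers, had Kif4 (106 CPM) and Kif15 (26.8 CPM) and no other member above 0.388 CPM. L2N9, with 8556 CPM, had Kif15 (66.3 CPM), Kif18a (41.0) and Kif11 (13.0). Kif2c and Kif20a were below 10 CPM in all 6 of these cells. For Kif20a this held in most cells of every group, as only 1 of 10 E14.5 positive and 1 of 6 P5 positive cells reached 10 CPM. Kif2c reached it in 8 of 10 and 5 of 6 of these, and in no negative cell of either age. The limit and the cells were chosen after their values were seen, and whether their stage sets these levels was not tested.

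**Figure D3:**
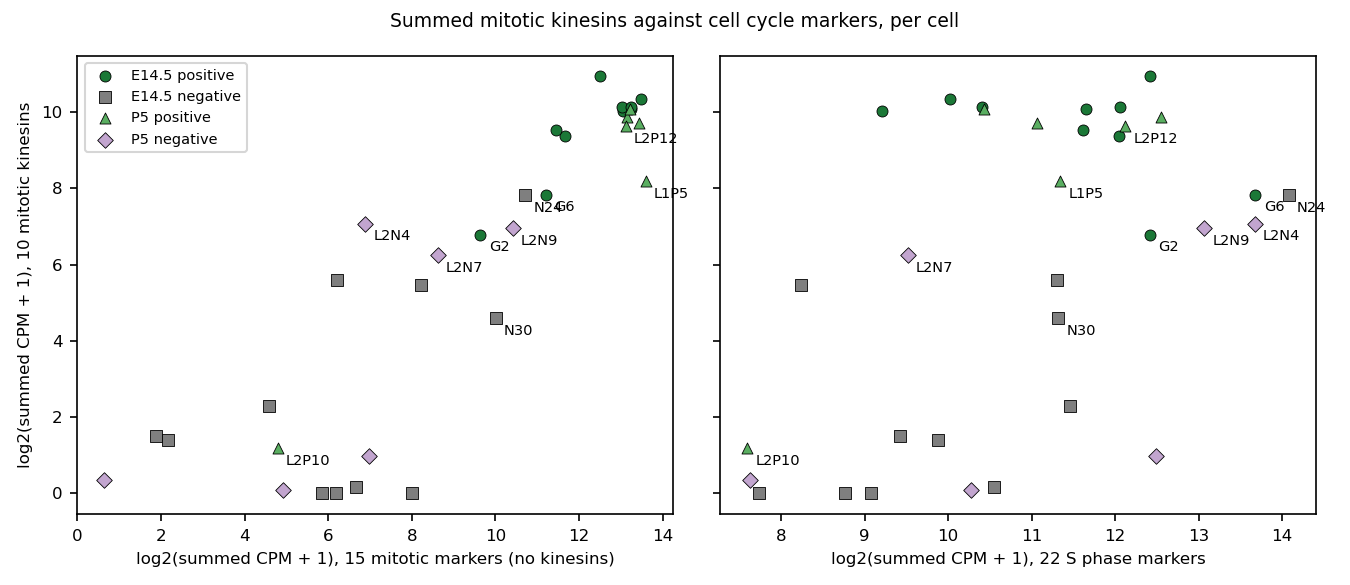
Summed CPM of the 10 mitotic kinesins in each cell, as log2(CPM + 1), against the summed CPM of 15 mitotic markers (left) and 22 S phase markers (right) on the same scale, with symbols for the 4 groups. On the left the points rise together, with L2P10 low on both axes. On the right, some cells with many S phase transcripts, such as N24, G6 and L2N4, lie below the top of the kinesin scale. Others, such as G8 and L2P7 (not labelled), lie at or near its top.

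The proportions among the members changed from cell to cell. Over the 33 cells, all 45 pairs of members had a positive r on log2(CPM + 1), with a median of 0.67, from 0.27 for Kif14 and Kif4 to 0.89 for Kif20b and Kif2c. Within the 10 E14.5 positive cells the median was 0.41, from -0.08 for Kif14 and Kif4 to 0.83 for Kif2c and Kif18b. Both members of a pair come from the same library of each cell.

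Shares of the counts may depend on transcript length as well as on level, which was not tested. Of all member counts in E14.5 positive cells, Kif20b took 26.9%, Kif18a 19.6% and Kif11 17.9%. Single cells departed from this: Kif20b was the largest share in 5 cells, Kif11 in 3 and Kif18a in 2. Kif20b took from 6.93% to 58.4% of the member counts of a cell, and Kif11 from 5.04% to 55.7%. In P5 positive cells Kif22 took 23.3%, Kif20b 21.4%, Kif11 13.0% and Kif4 11.6%. Among the 5 P5 positive cells with at least 100 member counts, Kif2c led in 2, and Kif11, Kif22 and Kif20b led in 1 each.

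**Figure D4:**
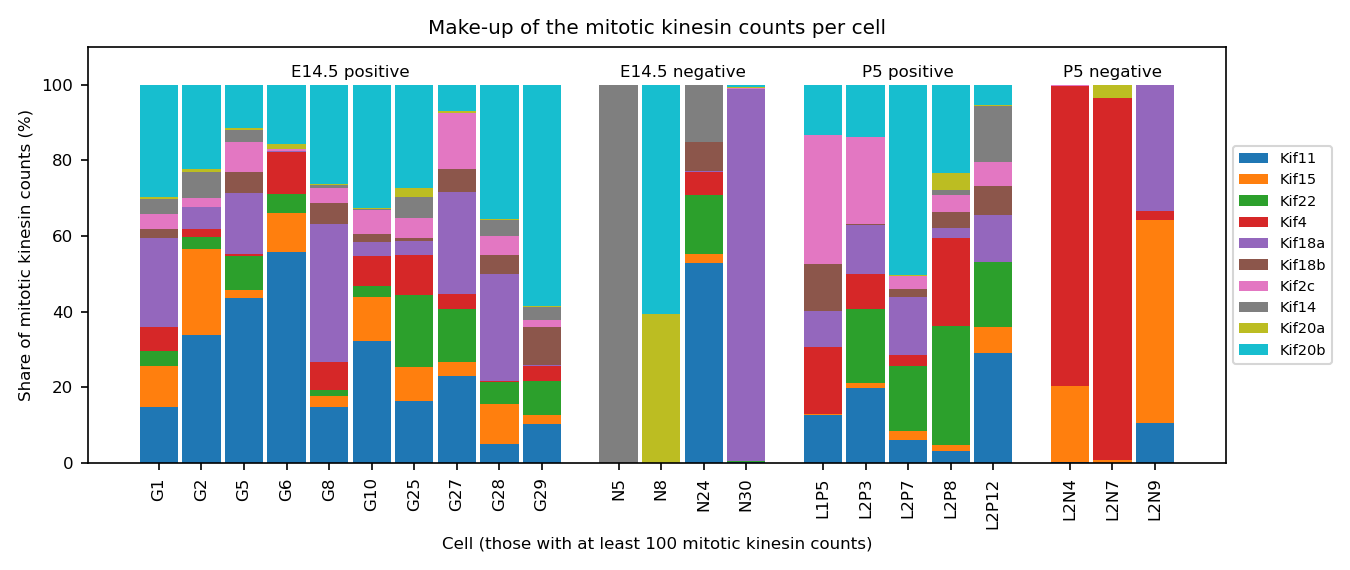
Share of each of the 10 mitotic kinesins in the summed kinesin counts of a cell, in percent, for the cells with at least 100 such counts, ordered by group. Positive cells hold most members in changing proportions, and several negative cells are filled by 1 or 2 members, such as Kif14 in N5, Kif18a in N30 and Kif4 in L2N7.

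Genes outside the members were ranked by how alike their level was to the mean log2(CPM + 1) of the 10 members over the 33 cells. Among 8126 genes with at least 10 CPM in at least 5 cells, the 8 most alike were Kif23 (r = 0.98), Prc1 (0.96), Ckap2l (0.96), Hmmr (0.96), Top2a (0.96), Nek2 (0.95), Sgol2 (0.94) and Cdca2 (0.94). Prc1 bundles the microtubules of the central spindle. Kif23 is a further mitotic kinesin, of the centralspindlin complex. Its summed level was 242 CPM in the E14.5 positive group and 245 CPM in the P5 positive group. Cenpe, the kinetochore motor, ranked at 24 (r = 0.90) and was higher in every E14.5 positive cell than in every negative one, at summed levels of 208 and 0.0409 CPM. Kif5b, the transport kinesin with 709 CPM (E14.5 positive) and 715 CPM (E14.5 negative), had an r of 0.16.

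Partners and regulators of the members were read as a list of 22 genes. At E14.5, 16 of the 21 with at least 10 counts were higher by over 4-fold in positive cells and 1 lower, with a median log2 ratio of 3.76. Over all genes, 14.4% were higher and 17.0% lower by that much. The highest were Aurka, which activates spindle assembly (13.25, interval 10.78 to 18.56, from 1 count in negative cells), and Hmmr, a spindle protein (12.78). The lowest were Nek9 (-2.37) and Nek6 (-0.98), kinases that act upstream of Kif11. Between P5 positive and E14.5 positive cells the median was 0.09. Of the 22, 2 were higher by over 4-fold, Nek9 at 2.03 and Mapre3 at a bound of 4.84. Over all genes, 19.8% were higher and 27.4% lower by that much. Mapre3 had 0.543 CPM in P5 positive and 0 counts in E14.5 positive cells, and L2P12 held 72.0% of its P5 positive counts. For Nek9, L2P8 held 65.7% of the P5 positive counts. Lower by over 4-fold was 1 gene, Ect2 at -3.54. L2P7 held 71.9% of the P5 positive counts of Ect2, at 219 CPM, and the E14.5 positive cells ran from 36.5 to 1332 CPM. No member of the 10 was as low as Ect2 in that comparison, the lowest being Kif18a at -1.53. In P5 positive over P5 negative cells 16 of 22 were higher and 1 lower by over 4-fold, with a median of 3.91. Over all genes, 25.6% were higher and 27.7% lower by that much.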

How the data were processed

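Single ventricular cells were sequenced after antisense RNA amplification, and the deposited table holds raw read counts per gene, per the labels and from its values, which are whole numbers. The submitters' processing notes name CASAVA 1.8.2, STAR 2.4.0j, HTSeq 0.6.1p1 and the build mm10. The annotation, strand setting and any molecular identifiers are not given in the sources used here. All 33 value columns matched a sample, and 0 other columns were present.

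Groups were read from the labels. Counts were summed per group, divided by column totals and given as CPM; ratios are log2 ratios of CPM, and a group with no count was set to 3 counts. A gene entered the background with at least 10 counts over both groups. Python 3.11.15 with numpy 2.4.6, pandas 2.3.3 and scipy 1.17.1 was used, and the ratio function was tested on simulated data. Exon lengths are from GENCODE and promoters from RefSeq, leaving out promoters of 1 chromosome. Alternatives were edgeR 4.0.16 TMM factors, DESeq2 1.42.0 size factors (R 4.3.3), equal weight per cell, thinning, totals without the 20 leading genes, other thresholds, title ranges and leaving out cells.

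All members are named, with, of each other list, the 2 highest and 2 lowest ratios at 10 CPM or more, and the 8 most alike genes. Members, lists and alternatives were chosen with earlier results of these data known. Genes and cells named besides were chosen after their values were seen.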

Additional observations from a re-analysis of the deposited data

Results flagged for a closer look

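In groups of 6 or 10 cells, a cell was singled out when its gap to the next cell, divided by the range of the group, exceeded Dixon's 95% limit. Looked at were 28 combinations of a member and a group with any counts, and the summed members in 3 groups. Of the 31, 11 had such a cell, all of them in single members. Chance flags about 1 in 20 groups where values follow a normal distribution, which single-cell levels with many zeros do not. The group of 11 cells was not tested.

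In E14.5 positive cells, G8 had 719 CPM of Kif18a (next cell 319 CPM), G27 had 161 CPM of Kif2c (next 85.1 CPM) and G25 had 30.7 CPM of Kif20a (next 5.69 CPM). In P5 positive cells, L2P8 had 251 CPM of Kif4 (next 76.5 CPM) and 48.6 CPM of Kif20a (next 3.43 CPM). L2P12, the cell led by endothelial markers, had 118 CPM of Kif14 (next 14.2 CPM). In P5 negative cells, L2N9 had 13.0 CPM of Kif11 (next 0.388 CPM) and 41.0 CPM of Kif18a (next 0.194 CPM). L2N7 had 2.61 CPM of Kif20a (next 0.0908 CPM), L2N10 had 0.553 CPM of Kif20b (next 0.0908 CPM) and L2N4 had 0.388 CPM of Kif2c (next 0, so any count there stands apart). No explanation of these values was tested.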

How the results depend on the processing

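With 1 sample per group, no setting turns these values into a test, and single cells differ by far more than the counting intervals. Where a value moved, the cause was not tested. Of 680 recomputed member ratios, 12 changed sign. Of these, 1 was past 4-fold in the main setting: Kif20a, positive over negative at E14.5, at -0.77 within titles 1 to 10. The other 11 concerned Kif4, Kif2c, Kif14 and Kif20a in P5 positive over E14.5 positive and Kif4 in P5 positive over P5 negative (-0.30 without L2P8). Members past 4-fold at E14.5 numbered 8 with equal weight, after thinning and within titles 1 to 10, 10 with TMM factors and within titles 21 to 30, and 8 to 10 when 1 cell was left out. In P5 positive over P5 negative they numbered 7 to 9 when 1 cell was left out. The median member ratio of E14.5 positive over negative was 5.10 with equal weight per cell, 9.58 within titles 1 to 10, 5.28 within titles 21 to 30, and 4.58 to 10.15 when 1 cell was left out. Of these, 9.58 rests on bounds of members with no negative count, and 10.15 does so in part. In P5 positive over E14.5 positive it was -0.30 with TMM factors and -0.29 with DESeq2 size factors, which moved the all-gene median alike, from -0.39 to -0.23 and -0.22. It was -0.33 after thinning, -0.84 without the cell led by endothelial markers, and -1.01 to -0.25 when 1 cell was left out. Members past 4-fold there numbered 2 without that cell, 3 at a 2-fold threshold, and 0 to 2 when 1 cell was left out. The 2 came without L2P12, and 1 without L2P8 and 1 without G25. In P5 positive over P5 negative the median was 7.27 with equal weight, 6.65 after thinning, 4.95 without the members that had no count, and 6.18 to 9.97 when 1 cell was left out. Without all cells led by other markers no P5 negative cell was left, so that value was not run. At a threshold of 50 CPM the shares of member values were 46.0%, 0.909%, 36.7% and 5.00%, in the order positive and negative at E14.5, then positive and negative at P5, and at 1 CPM the E14.5 negative share was 12.7%. No paired analysis was possible because numbers in the titles name single cells, and no label ties cells of different groups to an animal or day. The P5 titles begin with L1 (L1P5 and L1N3) or L2 (all others), and the meaning of these prefixes is not given. Values were not recomputed within them.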

Other observations

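Kinesins outside mitosis were read as a list of 29 genes, of which 24 were in the table. At E14.5, 20 of these had at least 10 counts, with 5 higher and 3 lower by over 4-fold in positive cells, where 14.4% of all genes were higher and 17.0% lower. The median log2 ratio was 0.20, beside -0.16 over all genes. Only kinesins at 10 CPM or more in 1 of the groups are named, which were 10 here. Kif5c, a transport motor, had the highest ratio of these, a bound of 10.62 from 0 counts in negative cells, and 99.9% of its positive counts came from G27. Kif16b, an endosome motor, was at 1.42 (1.37 to 1.48). Kif2a, which like Kif2c removes tubulin from microtubule ends, was at -1.13 (-1.18 to -1.08), the lowest of these, beside 13.83 for Kif2c. Kif2a reached 10 CPM in 10 of 11 E14.5 negative and 6 of 10 positive cells. Kif13a, a vesicle motor, was at -0.32.

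Between P5 positive and E14.5 positive cells, 3 of 20 such kinesins were higher and 9 lower by over 4-fold, with a median of -1.50, beside -0.39 over all genes, of which 19.8% were higher and 27.4% lower by that much. The 3 higher ones were below 10 CPM in both groups and are not named. Kif26b had 2 counts in P5 positive cells and a log2 ratio of -9.39 (-12.43 to -7.53). Kif3a, a motor of transport in cilia, was at -2.47, and L2P7 held 99.6% of its P5 positive counts. Of the 10 at 10 CPM or more, Kif1c (-0.25) and Kif13a (-0.57) were the highest. Klc1, a kinesin light chain, was at 2.51 (2.44 to 2.57), and L2P12 held 76.6% of its P5 positive counts. These lists share the E14.5 positive cells with the values given above.

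Of the further mitotic kinesins, Kifc1 had summed levels of 7.90 CPM (E14.5 positive) and 3.98 CPM (P5 positive). It has a near-identical copy, Kifc5b, so its reads are uncertain.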
